A study of Mus musculus with 12 samples.

Results

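Satellite cells are the stem cells of skeletal muscle and lie between the muscle fibre and its basement membrane. While a muscle grows they divide and give nuclei to the fibres, and in the mature animal most of them rest outside the cell cycle until injury. Pax7 is the transcription factor that defines them. The comparison described here sets satellite cells of growing muscle against those of mature muscle. It uses all 12 arrays of the study: 6 growing arrays (3 fetal, 3 adolescent) and 6 mature arrays (3 adult, 3 aged). All mice were of strain C57BL/6 and were heterozygous for the Pax7-ZsGreen reporter, so the sorted cells are those in which Pax7 drives green fluorescence. The fetal source was the forelimb and hindlimb muscle of 4 mice at E17.5. Adolescent cells were from 6 mice at postnatal day 21, adult cells from 8 mice of 2 to 3 months and aged cells from 8 mice older than 1 year. The postnatal samples were from hindlimb, so that limb and stage cannot be told apart for the fetal arrays. Muscle was digested with dispase and collagenase, and sorting gates were set for each age and against wild-type mice. The labels do not say that the 3 arrays of a stage came from distinct groups of mice, so the spread behind each p-value may be no more than technical.

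Values are log2 RMA intensities, a summary of each probe set's brightness after normalization across arrays. A difference is the mean of the adult and aged stage means minus the mean of the fetal and adolescent stage means, so 1 is a 2-fold change. It is given ± its standard error from limma's fit with 3 arrays a stage. Genes are said to pass where the p, adjusted by Benjamini-Hochberg across the 19938 genes, was below 0.05. No overlap means that each of the 6 mature arrays lay above, or each lay below, all 6 growing arrays, and the gap is the distance between the nearest arrays of the 2 sides. In sorted cell pools, fewer cells of a type and less RNA per cell cannot be told apart.

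The cells carried the markers of their label on both sides. Pax7 stood at 10.36 to 11.03 in growing cells (median 10.67) and at 11.45 to 11.71 in mature cells (median 11.66). The sides did not overlap, and the difference was 0.91 ± 0.07 (adjusted p = 8.07e-07). Myf5, a myogenic determination factor, was likewise higher in mature cells (0.93 ± 0.08), with growing arrays at 9.37 to 10.27 and mature arrays at 10.46 to 10.93. Pax3, the relative of Pax7 that founds the limb muscle lineage, was dimmer and rose by 0.39 ± 0.08. Myod1, which commits cells to the muscle lineage, did not pass (0.19 ± 0.08, adjusted p = 0.0604), and its ranges overlapped (9.88 to 10.77 and 10.26 to 10.70).

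Arrays correlated across genes with a median r of 0.979 within a side (0.965 to 0.999 over 30 pairs) and 0.949 between sides (0.905 to 0.985 over 36 pairs). In each stage replicates 2 and 3 were nearest neighbours (r of 0.996 to 0.999), with replicate 1 apart from them. With replicates 2 and 3 averaged into a single array per stage, 4203 genes passed in place of 8116. Some mature arrays stood further apart. Adult replicate 1 had its highest correlation with adolescent replicate 2 (r = 0.985). Its mean over 59 mitosis genes was 6.99, against 5.36 to 5.98 on the other 5 mature arrays and 8.43 to 9.35 on the growing arrays. Adult replicates 2 and 3 and aged replicate 1 carried a raised signal at 1210 probe sets for olfactory and vomeronasal receptors, genes of smell and pheromone sensing, with means of 4.47, 4.50 and 4.31 against 3.79 to 3.91 on the other 9 arrays. Values near 4 therefore sit at the level of genes that muscle cells should not express, and a fold change that starts there is limited by that level. Counts of all genes and of several lists are also given without these arrays.

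Of 19938 genes, 8116 passed (40.7%), with 3387 higher (17%) and 4729 lower (23.7%) in mature cells. The larger number of lower genes depended on the scaling, with 4321 higher and 4088 lower after repeated quantile normalization and 4326 and 4185 when arrays were centred on their medians. The sides did not overlap for 3385 genes (17%). Of these 1033 were higher (5.18%) and 2352 lower (11.8%) in mature cells, and 3363 of all without overlap also passed (16.9%). The split without overlap likewise shifted to 1677 higher and 1723 lower and to 1495 and 1811 under these scalings. Genes that passed with no overlap and changed at least 2-fold numbered 979 (4.91%), 306 higher (1.53%) and 673 lower (3.38%). A further 140 genes rose (0.702%) and 113 fell (0.567%) at least 2-fold with overlapping arrays. Calcr, the calcitonin receptor, was just outside the no-overlap rule, as its lowest mature array (10.89) fell under its highest growing array (10.90). Mymk, the membrane protein myomaker needed for myoblast fusion, was just inside it, with the lowest growing array and the highest mature array both at 9.01. Without adult replicate 1, 6285 genes were higher (31.5%) and 5832 lower (29.3%), and 1478 higher (7.41%) and 3041 lower genes (15.3%) had no overlap.

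The genes with the widest gap above the growing range were led by enzymes, receptors and transporters. Akr1c14, a 3-alpha-hydroxysteroid dehydrogenase that acts on steroid hormones, was at 3.96 to 5.65 (median 4.97) in growing cells and at 8.65 to 9.84 (median 9.12) in mature cells. Its gap of 3.00 was the widest in this direction among the genes eligible to be named, and its difference was 4.37 ± 0.14 (20.6-fold, adjusted p = 5.02e-10), from a growing level close to that of the receptor probe sets. Car12, a membrane carbonic anhydrase, was at 7.15 to 7.52 in growing and 9.76 to 10.20 in mature cells (2.62 ± 0.08, 6.16-fold). Its growing level was well above the receptor signal, and its stage means hardly moved within a side (7.25 fetal, 7.44 adolescent, 9.82 adult, 10.12 aged). P2ry14, a receptor for UDP-sugars, rose from 5.31 to 6.61 in growing cells to 8.69 to 10.01 in mature cells (3.52 ± 0.10).

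Hormone-linked genes were among those with wide gaps. Tshr, the thyrotropin receptor, was at 6.03 to 7.52 (median 6.49) in growing cells and at 9.48 to 10.55 (median 9.95) in mature cells, a difference of 3.34 ± 0.12. Greb1, a target of the oestrogen receptor, was at 4.93 to 5.29 in growing and 7.27 to 8.54 in mature cells (2.81 ± 0.19). The mature arrays were higher in every case, with the lowest Greb1 values on adult replicate 1 and aged replicate 1. Slco2a1, a prostaglandin transporter, differed by 3.15 ± 0.21, Cebpd, a transcription factor of the acute phase, by 3.02 ± 0.10, and Gabre, the epsilon subunit of the GABA-A receptor, by 2.64 ± 0.09. Gpnmb, a membrane glycoprotein, rose by 3.16 ± 0.12, and Ccl19, a chemokine that attracts lymphocytes and dendritic cells, by 2.65 ± 0.10. The long noncoding RNA gene Lncpint rose by 3.85 ± 0.14, and the others of the 15 widest gaps were Hs6st3, a heparan sulphate sulphotransferase (2.85 ± 0.10), Pof1b (2.82 ± 0.10), the zinc finger gene Bnc2 (2.01 ± 0.08) and Ksr2, a scaffold of the Ras pathway (1.82 ± 0.10).

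The widest gap below the growing range was that of Nrk, an X-linked kinase of the germinal centre family. It was at 7.58 to 11.71 (median 9.73) in growing cells and at 4.17 to 4.70 (median 4.48) in mature cells, a fall of 5.22 ± 0.09 on the log2 scale (37.3-fold, adjusted p = 1.85e-12). Growing arrays fell into separate levels for Nrk, with a fetal mean of 11.60 and an adolescent mean of 7.77. Mature values of Nrk were close to the receptor signal. The other 14 genes with the widest gaps in this direction serve cell division.

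**Figure D1:**
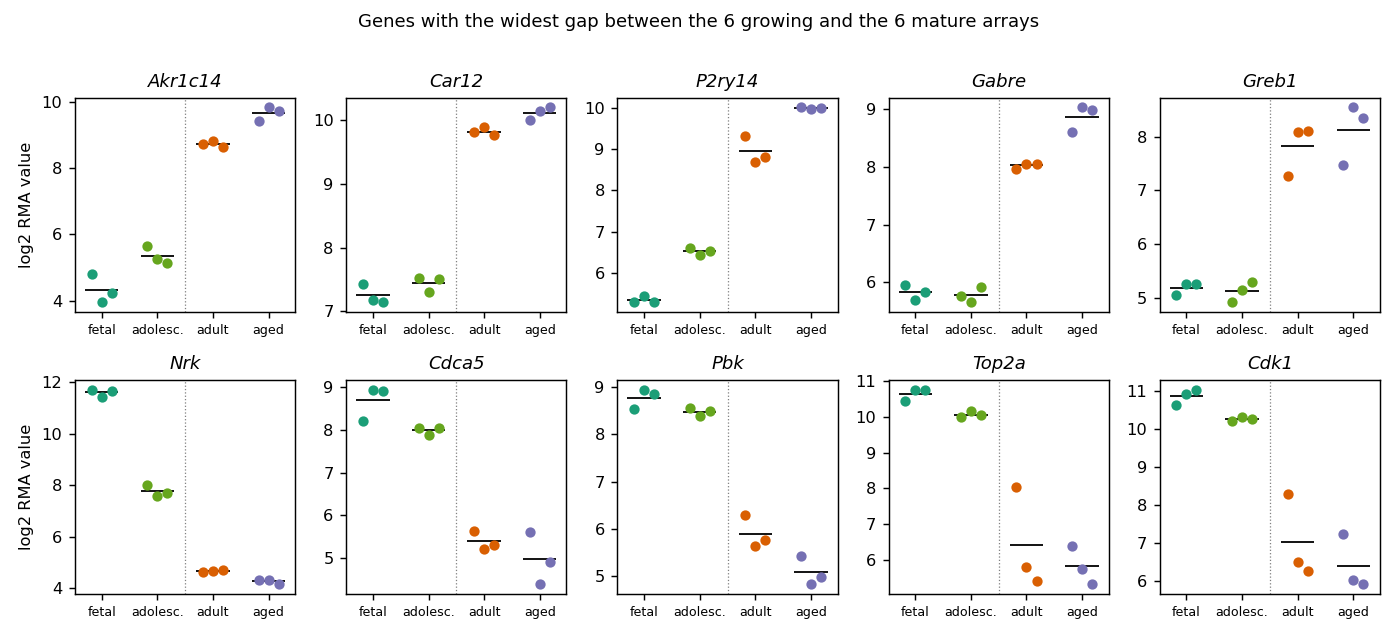
Log2 RMA values of the 5 genes with the widest gap in each direction, 1 panel a gene, with the 3 arrays of each stage as points and the stage mean as a short line, on vertical axes that differ between panels. The dotted line divides growing from mature stages. In the upper row all 6 mature arrays lie above all 6 growing arrays and in the lower row all lie below, with adult replicate 1 the highest mature array for Top2a (8.04) and Cdk1 (8.28).

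Cell division genes were lower in mature cells almost without exception. A dividing cell licenses and copies its DNA in S phase and then separates the copies in mitosis, where cyclin-dependent kinase 1 drives entry, kinetochores attach the spindle and the anaphase-promoting complex starts separation. Of 59 measured genes of mitosis, spindle and kinetochore, 0 rose and 59 fell, against 23.7% of all genes, with a median difference of -3.11. Of 46 genes of S phase and origin licensing, 0 rose and 46 fell (median -1.77). The median over all genes tested was 0.05. The sides did not overlap for 58 of the mitosis genes (all but Pttg1) and for 44 of the S phase genes (all but Orc6 and Tipin), against 11.8% of all genes on that side.

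Among regulators of mitosis, Cdk1 was at 10.20 to 11.03 (median 10.47) in growing cells and at 5.92 to 8.28 (median 6.39) in mature cells, a difference of -3.85 ± 0.31. The checkpoint kinase Bub1 differed by -4.38 ± 0.38 and its partner Bub1b by -2.87 ± 0.12. Bub1b was the tightest of these, with mature arrays between 6.16 and 6.83. Top2a, the topoisomerase that untangles replicated DNA, was at 9.99 to 10.75 in growing and 5.34 to 8.04 in mature cells (-4.22 ± 0.36). Kinetochore and spindle genes followed the same direction, with differences of -3.80 ± 0.29 for Knl1, -3.34 ± 0.25 for Nuf2, -3.47 ± 0.22 for Aspm, -3.11 ± 0.16 for Kif2c and -3.41 ± 0.25 for Racgap1. The difference was -3.15 ± 0.13 for Pbk, a mitotic kinase, -3.11 ± 0.17 for Melk, -2.63 ± 0.11 for Kif14 and -2.42 ± 0.11 for Incenp, a subunit of the chromosomal passenger complex. Cip2a, an inhibitor of protein phosphatase 2A, fell by 3.45 ± 0.24. Mki67, the common stain for cycling cells, was at 10.54 to 11.03 in growing cells and at 6.15 to 9.28 (median 6.52) in mature cells. Its 9.28 was on adult replicate 1, and the difference of -3.70 ± 0.40 passed.

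In S phase, Ccne1, the cyclin that opens it, was at 8.50 to 11.00 in growing and 5.92 to 7.30 in mature cells (-3.36 ± 0.18). Dbf4, the activator of the kinase that fires origins, differed by -2.61 ± 0.17, Chaf1a, which places histones on new DNA, by -1.68 ± 0.11, and the transcription factor E2f2 by -1.66 ± 0.11. Enzymes that supply nucleotides were lower too. Of 25 genes of nucleotide and one-carbon synthesis 0 rose and 21 fell, with no overlap for 17 (median -0.92). Of all genes 23.7% fell and 11.8% were lower without overlap. Rrm2, the regulated subunit of ribonucleotide reductase, had a difference of -3.32 ± 0.32, Dut, which clears dUTP, of -1.41 ± 0.12, Umps of -1.28 ± 0.10, Ctps of -1.17 ± 0.09 and the mitochondrial folate enzyme Mthfd1l of -1.08 ± 0.07. Psat1, an enzyme of serine synthesis, differed by -2.18 ± 0.20.

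Condensins compact mitotic chromosomes and cohesin holds sister chromatids together. Of 20 such genes 1 rose and 16 fell (median -0.83), against 17% and 23.7% of all genes. Ncapg differed by -3.91 ± 0.24, Ncaph by -3.30 ± 0.25, Ncapd2 by -2.30 ± 0.15 and Cdca5 (sororin) by -3.17 ± 0.19, with Cdca5 at 7.89 to 8.95 in growing and 4.38 to 5.64 in mature cells. The cohesin loader Nipbl did not pass (0.15 ± 0.09, 9.56 to 9.79 against 9.55 to 10.04). Of 33 genes of homologous recombination and Fanconi repair 0 rose and 29 fell (median -1.15), with differences of -2.70 ± 0.18 for Brca1, -2.44 ± 0.15 for Rad54l, -2.40 ± 0.16 for Rad54b and -2.07 ± 0.14 for Fanci.

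The brakes and switches of the cycle did not move as a block. Of 35 D cyclins, inhibitors and members of the retinoblastoma and E2F families, 6 rose and 21 fell (median -0.50). Of all genes 17% rose and 23.7% fell. The repressor E2f7 was at 7.69 to 9.35 in growing and 6.05 to 6.61 in mature cells (-2.29 ± 0.08), and the kinase Cdk6 fell by 1.26 ± 0.10. Cdkn1c, the imprinted inhibitor p57, fell by 2.83 ± 0.28 with a single overlap, since adult replicate 1 (10.09) exceeded the lowest growing array (9.96). Ccnd1, cyclin D1, passed at -0.48 ± 0.12, but its stage means ran 9.46, 11.06, 10.15 and 9.41 from fetal to aged, so that the fetal and aged levels lay side by side. On the rising side were the antiproliferative gene Btg2 (1.58 ± 0.10) and Gas6, a growth arrest gene and ligand of Axl receptors (1.24 ± 0.06). The inhibitors Cdkn1b (p27) and Cdkn2a (p16) did not pass, with 95% intervals of the difference from -0.12 to 0.19 and from -0.11 to 0.26.

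Most chromatin genes fell. Of 39 genes of chromatin and DNA methylation 5 rose and 30 fell (median -0.79), against 17% and 23.7% of all genes. The maintenance methyltransferase Dnmt1 (-1.63 ± 0.10) and its guide Uhrf1 (-3.03 ± 0.27) fell, as did the lamin Lmnb1 (-2.56 ± 0.14) and the high mobility group genes Hmgb2 (-2.30 ± 0.12) and Hmgb3 (-1.42 ± 0.07). In the Polycomb group the catalytic subunit Ezh2 fell by 1.27 ± 0.14, while its paralogue Ezh1 was at 7.90 to 9.17 in growing and 9.26 to 9.71 in mature cells (1.00 ± 0.09). Cbx7, a reader of the Polycomb mark, rose from 6.17 to 7.85 in growing cells to 8.61 to 9.31 in mature cells (1.93 ± 0.09).

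Promoters of these division genes carry short elements known to be read by cell cycle factors. CCAAT boxes are bound by NF-Y, the cell cycle homology region (CHR) by the MuvB-containing DREAM and Myb complexes, and E2F sites by the E2F family. To show what the 2 arms of the cycle hold, 8 promoters are printed, each the 150 bases before the RefSeq start (GRCm38.p6), on the gene's strand, 5′ to 3′. Capitals mark CCAAT boxes (CCAAT or ATTGG), CHR elements (TTTGAA or TTCAAA) and E2F sites (TTTCCCGC, TTTGGCGC or TTTCGCGC, or their reverse complements). They are the mitosis genes Espl1, which encodes separase (chr15:102296143-102296292, plus strand), Kif22, a chromosome-moving kinesin (chr7:127042421-127042570, minus), Cdc20, the activator of the anaphase-promoting complex (chr4:118437344-118437493, minus), and Cdk1 (chr10:69352913-69353062, minus). The S phase genes are Cdc6, which loads the helicase at origins (chr11:98908001-98908150, plus), Rfc3, part of the clamp loader (chr5:151651209-151651358, minus), Pola1, the primase-linked polymerase (chrX:93632156-93632305, minus), and Mcm5, a helicase subunit (chr8:75109359-75109508, plus).
Espl1: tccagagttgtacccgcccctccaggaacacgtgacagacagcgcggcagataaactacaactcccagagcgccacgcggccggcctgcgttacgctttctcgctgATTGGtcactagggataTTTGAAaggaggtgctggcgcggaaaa
Kif22: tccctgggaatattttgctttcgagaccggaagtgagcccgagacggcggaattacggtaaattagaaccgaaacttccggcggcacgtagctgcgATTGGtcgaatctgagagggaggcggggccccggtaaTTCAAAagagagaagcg
Cdc20: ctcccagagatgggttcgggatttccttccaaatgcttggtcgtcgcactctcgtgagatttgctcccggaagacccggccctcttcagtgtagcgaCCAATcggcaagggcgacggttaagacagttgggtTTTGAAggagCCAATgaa
Cdk1: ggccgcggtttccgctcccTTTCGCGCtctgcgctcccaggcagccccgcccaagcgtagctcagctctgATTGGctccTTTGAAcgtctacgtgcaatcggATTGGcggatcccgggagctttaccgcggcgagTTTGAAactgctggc
Cdc6: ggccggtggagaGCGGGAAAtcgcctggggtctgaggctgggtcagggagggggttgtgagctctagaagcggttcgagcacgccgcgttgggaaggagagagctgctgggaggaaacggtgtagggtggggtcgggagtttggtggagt
Rfc3: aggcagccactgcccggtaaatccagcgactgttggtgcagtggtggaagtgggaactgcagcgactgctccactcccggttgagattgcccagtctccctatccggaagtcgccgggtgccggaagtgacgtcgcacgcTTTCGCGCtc
Pola1: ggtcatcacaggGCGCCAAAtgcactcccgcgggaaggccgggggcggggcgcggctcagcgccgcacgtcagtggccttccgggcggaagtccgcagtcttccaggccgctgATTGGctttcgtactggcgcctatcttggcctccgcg
Mcm5: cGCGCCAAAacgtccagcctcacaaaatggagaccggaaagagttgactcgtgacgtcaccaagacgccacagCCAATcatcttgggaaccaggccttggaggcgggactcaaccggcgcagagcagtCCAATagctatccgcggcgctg

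In Espl1 the CCAAT box began 44 bases and the CHR 27 bases before the start, in Kif22 54 and 17, and in Cdc20 53 and 18 with a second CCAAT box at 8. Cdk1 held CCAAT boxes at 80 and 48, CHR elements at 71 and 15 and an E2F site at 131. The E2F site began 138 bases before the start in Cdc6 and Pola1, 149 in Mcm5 and 10 in Rfc3. All 8 genes fell without overlap, with differences of -2.08 ± 0.13 for Espl1, -3.11 ± 0.23 for Kif22, -2.20 ± 0.17 for Cdc20, -2.04 ± 0.15 for Cdc6, -2.12 ± 0.16 for Rfc3, -1.41 ± 0.12 for Pola1 and -2.32 ± 0.21 for Mcm5. These promoters were chosen because they hold the motifs, so they illustrate and do not test them.

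Over all promoters, scanned on both strands from 250 bases before to 50 after the start, 41.7% of the 15614 tested genes with a RefSeq promoter held a CCAAT box, 17.3% a CHR, 6.89% both and 2.99% an E2F site. Of 48 mitosis genes with a promoter, 70.8% held a CCAAT box, 68.8% a CHR, 56.2% both and 6.25% an E2F site. Of 37 S phase genes, 54.1%, 21.6%, 10.8% and 43.2% did. The 1924 genes lower in mature cells without overlap held these at 47%, 16.7%, 8.68% and 7.48%, and the 777 higher genes at 38.9%, 14.2%, 4.76% and 0.772%. The shares are descriptions, and a match is not shown to be a bound site.

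**Figure D2:**
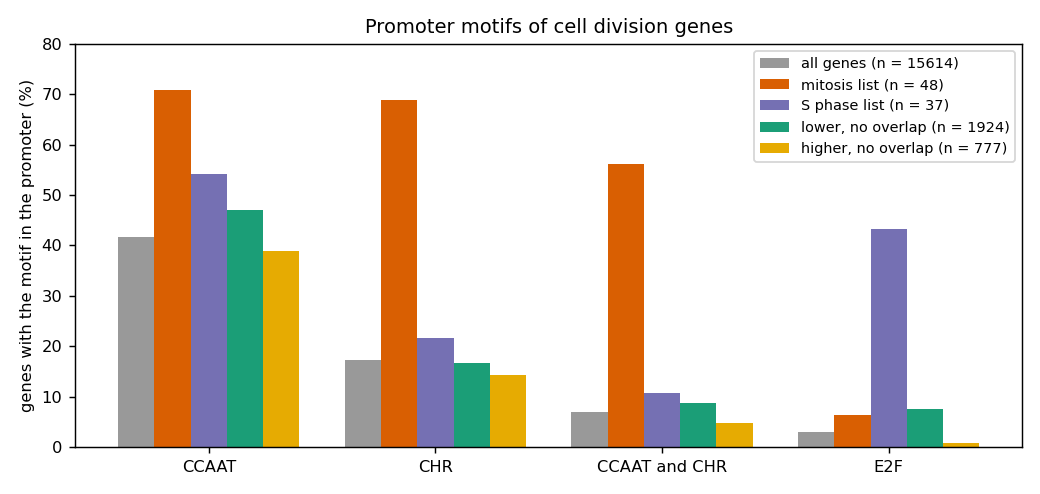
Share of genes (%) whose RefSeq promoter holds a CCAAT box, a CHR, both, or an E2F site, for all genes tested, the mitosis and S phase lists, and the genes lower or higher in mature cells without overlap. CCAAT and CHR together were in 56.2% of mitosis promoters against 6.89% of all, and E2F sites in 43.2% of S phase promoters against 2.99% of all.

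MicroRNAs are short RNAs that silence messages matched by their seed, bases 2 to 8 of the mature strand. The arrays read the precursor or gene region, not the mature arms, so the values describe miRNA genes. Of 296 miRNA genes tested, 85 rose and 26 fell, against 17% and 23.7% of all genes. Of the 296, 35 passed with no overlap, 31 of them higher and 4 lower in mature cells. Of all genes 5.18% were higher and 11.8% lower without overlap. Without adult replicate 1, 132 of the 296 rose and 29 fell, against 31.5% and 29.3% of all genes. The median difference of the 296 was 0.12 on all arrays and 0.04 without the 3 arrays of raised receptor signal. Mature sequences of 12 of the 35, chosen after their values were seen, are given to show which seeds they share. They are from RefSeq (GRCm38.p6), 5′ to 3′, with the seed in capitals.
miR-27a-3p: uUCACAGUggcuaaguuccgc
miR-23a-3p: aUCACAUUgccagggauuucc
miR-24-3p: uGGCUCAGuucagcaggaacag
let-7e-5p: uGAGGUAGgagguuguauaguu
miR-489-3p: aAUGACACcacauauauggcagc
miR-100-5p: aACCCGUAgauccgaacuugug
miR-99a-5p: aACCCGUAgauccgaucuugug
miR-195a-5p: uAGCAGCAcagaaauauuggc
miR-15b-5p: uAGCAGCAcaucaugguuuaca
miR-16-5p: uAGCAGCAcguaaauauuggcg
miR-19a-3p: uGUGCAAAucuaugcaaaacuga
miR-20a-5p: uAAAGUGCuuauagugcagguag

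The widest gaps belonged to neighbours of a single cluster on the plus strand (mature arms at chr8:84208527-84208896). Mir27a was at 6.46 to 7.38 (median 7.04) in growing cells and at 8.98 to 10.46 (median 9.60) in mature cells, a difference of 2.68 ± 0.17 (adjusted p = 1.23e-07). Mir23a was at 6.69 to 7.17 and 8.76 to 10.03 (2.34 ± 0.17), and Mir24-2 at 6.61 to 7.03 and 8.00 to 9.38 (1.79 ± 0.16). All 6 mature arrays were above all 6 growing arrays for each of the 3, and their mature strands have different seeds. Mirlet7e, of the let-7 family, rose by 1.17 ± 0.10. Mir100 rose by 1.60 ± 0.18 and Mir99a, with the same seed, by 0.89 ± 0.14.

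Mir489 and Mir653 lie within Calcr in the RefSeq annotation. Mir489 was at 4.06 to 6.29 in growing and 6.49 to 7.88 in mature cells (1.82 ± 0.19), and Mir653 rose by 1.88 ± 0.19. Calcr itself was at 9.01 to 10.90 and 10.89 to 11.10 (1.03 ± 0.06), with a fetal mean of 9.02 and adolescent, adult and aged means of 10.88, 10.96 and 11.02. Mir15b and Mir16-2 lie within Smc4, a condensin gene. Mir15b was at 4.24 to 5.81 in growing and 3.38 to 3.77 in mature cells (-1.38 ± 0.12), and Mir16-2 at 4.84 to 5.45 and 4.41 to 4.80 (-0.44 ± 0.09), while Smc4 fell by 2.01 ± 0.16. Mir195a, whose mature strand has the same seed AGCAGCA, was on a different chromosome and rose by 0.54 ± 0.08. Mir19a (-0.99 ± 0.11) and Mir20a (-0.64 ± 0.07), neighbours on chromosome 14, were the other members that fell. Mature values of Mir15b, Mir19a and Mir20a were within or below the range of the receptor means.

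**Figure D3:**
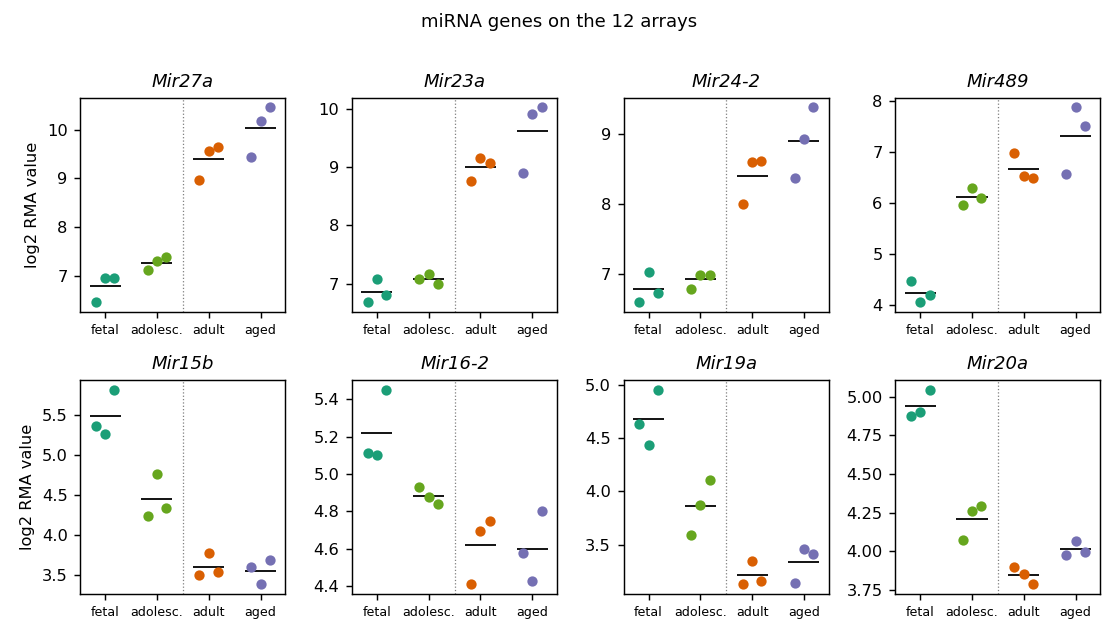
Log2 RMA values of 8 miRNA genes by stage, with the 3 arrays as points and the stage mean as a short line, and a dotted line between growing and mature stages. Mir27a, Mir23a, Mir24-2 and Mir489 are higher on all 6 mature arrays and Mir15b, Mir16-2, Mir19a and Mir20a lower. Vertical axes differ between panels and do not start at 0.

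Most imprinted and fetal growth genes were lower in mature cells, and many were already lower in adolescent than in fetal cells. Imprinted genes are expressed from a single parental copy, and many of them set fetal size. Of 26 such genes 2 rose and 19 fell (median -0.85), with no overlap for 1 and 14. The shares of all genes were 17% and 23.7%, and 5.18% and 11.8% without overlap. From fetal to adolescent cells 17 of the 26 fell, where 18.8% of all genes differed in either direction. Dlk1, a membrane ligand-like protein of precursor cells, was at 10.18 to 12.10 (median 11.29) in growing cells and at 7.57 to 8.75 (median 7.72) in mature cells (-3.31 ± 0.15). The difference was -3.36 ± 0.17 for Slc38a4, an amino acid transporter, -2.55 ± 0.08 for Asb4 and -2.56 ± 0.09 for Nnat (neuronatin). Asb4 had stage means of 9.15, 6.19, 5.18 and 5.05. Nnat was likewise highest in fetal cells, at a mean of 9.99 in fetal, 6.25 in adolescent, 5.69 in adult and 5.44 in aged cells. Mest differed by -2.23 ± 0.15 and the retrotransposon-derived Peg10 by -2.75 ± 0.17. Nap1l5 went the other way, from 5.62 to 7.13 in growing cells to 7.62 to 8.76 in mature cells (1.84 ± 0.11), and Peg3 did not pass (-0.11 ± 0.08).

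As a group the insulin-like growth factor axis lay near the shares of all genes (17% higher and 23.7% lower). Of its 22 genes 3 rose and 6 fell, and their median difference was within 0.01 of 0. Igf2, the fetal growth factor, was at 10.87 to 12.05 in growing and 9.85 to 10.64 in mature cells (-1.19 ± 0.08), and Igf1 fell by 0.87 ± 0.13. Their receptor Igf1r did not pass (-0.01 ± 0.08, 95% interval -0.18 to 0.16). Igfbp3, a carrier that limits the free factor, fell by 2.17 ± 0.17, and Irs2, an adaptor downstream of the receptor, rose by 1.06 ± 0.09. Of 27 let-7 targets and oncofetal genes 5 rose and 11 fell (median -0.17), with no overlap for 3 and 2. The RNA-binding proteins Igf2bp3 (-1.93 ± 0.07) and Igf2bp1 (-1.32 ± 0.09) passed through the fetal arrays alone. For Igf2bp3 the adolescent mean of 4.80 lay beside the adult 4.81 and aged 4.92, against 8.78 in fetal cells. Lin28b, which blocks let-7 processing, was at 3.77 to 4.14 and 3.73 to 4.29, at the receptor level on both sides. Myc rose, from 9.37 to 10.24 in growing cells to 10.40 to 11.10 in mature cells (0.93 ± 0.09). Mstn (myostatin), the inhibitor of muscle growth, fell by 2.95 ± 0.07, with a fetal mean of 9.95 and means of 5.35, 4.59 and 4.81 thereafter.

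Genes tied to resting satellite cells were mostly higher in mature cells. Of 38 quiescence genes 25 rose and 10 fell (median 0.74), with no overlap for 17 and 6. Much of this rise lay before the boundary, as 21 of the 38 were higher in adolescent than in fetal cells. The list mean was 8.81 to 8.83 on fetal, 9.38 to 9.49 on adolescent, 9.52 to 9.57 on adult and 9.62 to 9.70 on aged arrays. Klf9, a zinc finger factor, was at 6.59 to 9.83 in growing and 10.47 to 10.90 in mature cells (2.33 ± 0.09). Sdc4, a syndecan of the satellite cell surface, rose by 1.84 ± 0.09, the prostaglandin receptor Ptger4 by 1.84 ± 0.09 and Foxo1, a factor that restrains growth, by 1.11 ± 0.07. For Klf9 and Sdc4 most of the rise preceded the boundary, with adolescent means of 9.75 and 10.07 against fetal means of 6.86 and 7.88. Of 26 identity genes 13 rose and 8 fell (median 0.19), with no overlap for 8 and 3. From fetal to adolescent cells 16 of the 26 rose, and the list mean, though not each member, was alike in later stages. Their mean was 9.17 to 9.19 on fetal, 9.63 to 9.73 on adolescent, 9.63 to 9.74 on adult and 9.62 to 9.68 on aged arrays. Chrdl2, a BMP antagonist, rose by 1.60 ± 0.14 through the fetal arrays, and Mcam, an adhesion molecule, fell by 1.33 ± 0.11 with growing arrays at 8.98 to 9.62 and mature arrays at 7.97 to 8.27.

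Notch signalling holds satellite cells in the undifferentiated state. Of 34 Notch genes 12 rose and 10 fell (median 0.12), against 17% and 23.7% of all genes. The target Hes1 was at 7.88 to 8.61 in growing and 9.49 to 10.16 in mature cells (1.49 ± 0.07), and the receptor Notch3 rose by 0.83 ± 0.07. Notch1 did not pass (-0.17 ± 0.07). Dtx3, of the Deltex family, rose by 0.96 ± 0.08. Lfng, a glycosyltransferase that tunes ligand choice, fell by 1.70 ± 0.10 with an overlap, and Rbpj, the DNA-binding partner of the pathway, fell by 0.47 ± 0.07.

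Genes of commitment to muscle fell more often than they rose. Of 32 genes of commitment and fusion 7 rose and 18 fell (median -0.63), against 17% and 23.7% of all genes. Myog, the factor of terminal differentiation, was at 9.34 to 10.33 in growing and 6.62 to 9.50 (median 7.35) in mature cells (-2.21 ± 0.31), and its overlap came from adult replicate 1 at 9.50. Chrnd and Chrng, subunits of the fetal acetylcholine receptor, differed by -1.91 ± 0.13 and -1.52 ± 0.08, and Actc1, the actin of heart and developing muscle, by -3.14 ± 0.25. Des, which encodes desmin, rose by 0.87 ± 0.06, and Cdon, a receptor that promotes differentiation, by 1.45 ± 0.16. Of 35 genes of the mature fibre 2 rose and 13 fell (median -0.36), with no overlap for 0 and 6. Ryr1, the calcium release channel, differed by -1.82 ± 0.13, Ttn (titin) by -1.66 ± 0.14 and Neb (nebulin) by -1.71 ± 0.18, each highest in fetal cells. Actn3, a fast-fibre protein, passed upward (0.90 ± 0.10) while its adolescent mean of 10.27 exceeded the adult 9.91 and aged 9.87. The myofibre list averaged 7.05 to 7.93 on fetal arrays, 7.73 to 8.00 on adolescent, 7.04 to 7.47 on adult and 7.15 to 7.25 on aged arrays, and whether fibre fragments in the sort took part in these differences was not tested.

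Receptors and targets of hormones rose more often than they fell. Of 40 such genes 22 rose and 2 fell (median 0.28), against 17% and 23.7% of all genes. The sides did not overlap for 12 and 2, against 5.18% and 11.8% of all genes. The mean of the 40 was 6.58 to 6.70 on fetal, 7.22 to 7.25 on adolescent, 7.57 to 7.58 on adult and 7.68 to 7.76 on aged arrays. Besides Akr1c14, Tshr, Greb1 and Klf9, the mineralocorticoid receptor Nr3c2 was at 5.63 to 8.09 in growing and 8.43 to 9.05 in mature cells (1.75 ± 0.11). Dio2, which activates thyroid hormone, was at 6.42 to 6.76 and 7.46 to 7.99 (1.13 ± 0.09). Esr1, the oestrogen receptor, passed at 2.08 ± 0.08, but its adolescent mean of 10.09 was above the adult 9.89 and aged 9.86, and the fetal mean of 5.50 alone was low. Greb1 had no such shift between fetal (5.19) and adolescent cells (5.13). Rxrg, a retinoid X receptor, fell by 1.12 ± 0.07.

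Clock genes drive the daily rhythm, and the time of day at which muscle was taken is not given in the labels. Of 21 clock genes 16 rose and 1 fell (median 0.45), against 17% and 23.7% of all genes. For 6 of the rises the sides did not overlap, against 5.18% of all genes. The mean of the 21 was 7.06 to 7.10 on fetal, 7.89 to 7.97 on adolescent, 8.08 to 8.13 on adult and 8.32 to 8.41 on aged arrays. Nr1d1, the repressor REV-ERB alpha, was at 6.27 to 10.41 in growing and 10.79 to 11.15 in mature cells (2.67 ± 0.08), with 3.88 of log2 rise already between fetal and adolescent means. Bhlhe41 rose by 2.53 ± 0.15, Bhlhe40 by 1.66 ± 0.17 and Rora by 0.76 ± 0.08.

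Immediate early genes answer within minutes to growth factors and stress, and heat shock genes protect unfolding proteins. Of 38 genes of these kinds 29 rose and 6 fell (median 0.82), with no overlap for 22 and 3. The shares of all genes were 17% and 23.7%, and 5.18% and 11.8% without overlap. Junb was at 7.39 to 8.88 (median 8.39) in growing and 9.97 to 10.55 (median 10.28) in mature cells (1.95 ± 0.12). The phosphatase Dusp1 rose by 1.45 ± 0.08, the RNA-binding protein Zfp36l1 by 0.98 ± 0.06, Atf3 by 2.27 ± 0.20, the orphan receptor Nr4a1 by 2.16 ± 0.18 and the inducible Hspa1a by 2.98 ± 0.20. The mitochondrial chaperonin Hspd1 fell by 0.87 ± 0.08. The mean over this list was 8.49 to 9.03 on growing and 9.41 to 9.99 on mature arrays.

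Most antigen presentation and interferon genes rose. Of 24 presentation genes 20 rose and 1 fell (median 0.60), and of 40 interferon response genes 28 rose and 1 fell (median 0.47). The sides did not overlap for 3 and 4 of the rises, and for 9 and 17 without the 3 arrays of raised receptor signal. Of all 19938 genes 1033 (5.18%) were higher without overlap, and 2135 without those 3 arrays. The shares of all genes that passed were 17% higher and 23.7% lower. The fetal arrays were low and adolescent arrays often reached the mature range. H2-Q4, a class I molecule, had stage means of 5.34, 7.75, 7.50 and 8.64 (1.52 ± 0.13). Tapbp (tapasin) rose by 0.93 ± 0.08, the class I molecule H2-M3 by 0.83 ± 0.08 and the transporter Tap1 by 0.65 ± 0.07. The RNA sensor Ifih1 rose by 1.27 ± 0.11, Parp14 by 1.57 ± 0.14 and Oasl2 by 1.12 ± 0.12. Cd74 and H2-Aa of the class II pathway, which professional presenting cells use, were at 4.92 to 7.63 and 4.39 to 7.80 in growing cells and at 7.34 to 9.69 and 7.48 to 9.67 in mature cells. Beside them the macrophage genes Lyz2 (1.62 ± 0.21), Ctss (0.66 ± 0.15) and Itgam (0.56 ± 0.12) rose, while Cd68 did not pass (0.03 ± 0.13). They are 3 of 22 macrophage markers, of which 7 rose and 1 fell with a median difference of -0.02, and the part of other cells in the class II values was not tested.

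Antioxidant genes moved in both directions. Of 43 genes 15 rose and 12 fell, against 17% and 23.7% of all genes, and their median of 0.02 turned to -0.06 without adult replicate 1. The genes named here are examples. Gpx3, a secreted glutathione peroxidase, was at 7.99 to 11.75 in growing and 12.06 to 12.30 in mature cells (2.31 ± 0.07). Sod3, the extracellular superoxide dismutase, rose by 1.73 ± 0.09, the glutathione transferases Gstm1 and Gstm3 by 1.51 ± 0.06 and 1.23 ± 0.08 and the metallothionein Mt1 by 2.22 ± 0.15. The peroxiredoxins Prdx4, Prdx3, Prdx2 and Prdx1 fell, with differences of -1.05 ± 0.19, -0.90 ± 0.11, -0.59 ± 0.10 and -0.48 ± 0.10.

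Matrix genes moved in both directions. The provisional matrix of growing tissue is rich in versican, tenascin, fibrillin-2 and fibronectin. Of 44 matrix genes 12 rose and 22 fell (median -0.36), with no overlap for 6 and 12. Vcan was at 6.98 to 11.32 in growing and 5.60 to 6.27 in mature cells (-3.32 ± 0.12). The difference was -2.75 ± 0.09 for Fbn2, -3.17 ± 0.22 for Tnc, -2.46 ± 0.16 for Postn (periostin) and -1.69 ± 0.08 for Fbln1. For Vcan and Fbn2 the adolescent means (7.24 and 6.00) lay much nearer to the mature than to the fetal level (11.26 and 10.05). Prelp, a leucine-rich proteoglycan of basement membranes, rose from 7.34 to 10.67 in growing cells to 11.23 to 11.62 in mature cells (2.41 ± 0.10), and Thbs2 rose by 1.36 ± 0.14. Of 36 collagen genes 4 rose and 13 fell (median -0.04), against 17% and 23.7% of all genes. Without adult replicate 1, 7 rose and 13 fell, against 31.5% and 29.3% of all genes. Col1a2 was at 9.01 to 10.46 and 7.27 to 7.93 (-2.18 ± 0.09), and the differences of Col1a1, Col26a1 and Col6a3 were -1.65 ± 0.12, -1.84 ± 0.13 and -1.48 ± 0.11. Fibroblast markers, which include Col1a1 and Col1a2, counted 3 higher and 7 lower of 19. Their mean was 8.75 on fetal replicate 1, 8.12 to 8.28 on the other growing arrays and 7.85 to 8.07 on mature arrays. The part of fibroblasts in the collagen values was not tested.

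Genes of oxidative phosphorylation fell by small steps. Of 42 genes of oxidative phosphorylation 0 rose and 34 fell (median -0.55), 21 without overlap. Of all genes 17% rose and 23.7% fell, and 11.8% were lower without overlap. Atp5a1, of the ATP synthase, was at 10.95 to 11.15 in growing and 10.11 to 10.39 in mature cells (-0.76 ± 0.06). The succinate dehydrogenase subunit Sdhd differed by -1.18 ± 0.11, Uqcrc2 of complex III by -0.74 ± 0.08 and Ndufb3 of complex I by -0.77 ± 0.09. Adult replicate 1, with a list mean of 9.59, was close to the growing arrays (9.63 to 9.79), against 8.88 to 9.17 on the other mature arrays. Of 36 ribosome biogenesis genes 1 rose and 18 fell (median -0.24), with Rrn3, Gar1 and Dkc1 at -0.70 ± 0.07, -0.84 ± 0.09 and -0.69 ± 0.09. Of these 36, 10 fell after repeated quantile normalization, 13 without the 3 arrays of raised receptor signal and 24 without adult replicate 1. Of 11 housekeeping genes 1 rose and 7 fell (median -0.32), with Tubb5 at -1.32 ± 0.11, B2m at 0.82 ± 0.20 and Actb not passing at -0.03 ± 0.06. Without the 3 arrays of raised receptor signal 26 oxidative phosphorylation genes (median -0.35) and 4 housekeeping genes fell. Genes with a mean over 8 had a median difference of -0.17 and genes under 6 one of 0.12, and -0.05 and -0.03 without those 3 arrays, so small shifts of bright genes lie close to the shift of their level.

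Glycolysis and cholesterol genes showed no single direction. Of 27 glycolysis genes 8 rose and 11 fell (median -0.13), against 17% and 23.7% of all genes. The difference was -1.31 ± 0.13 for Pgk1, -1.20 ± 0.07 for Pfkl and -1.14 ± 0.08 for Tpi1, while the platelet-type phosphofructokinase Pfkp rose by 0.81 ± 0.09. Of 22 cholesterol synthesis genes 1 rose and 7 fell (median -0.06), but 5 rose and 4 fell after repeated quantile normalization (median 0.09). Without adult replicate 1 there were 3 rises and 8 falls, against 31.5% and 29.3% of all genes. Insig2, a brake on the pathway, rose by 0.57 ± 0.09, and Dhcr7, its last enzyme, fell by 0.49 ± 0.08. Among 41 genes of limb position, mostly Hox genes, 11 passed upward and 6 downward (median 0.06), against 17% and 23.7% of all genes. Hoxc6, Hoxc9, Hoxc5 and Hoxc8 were higher by 1.10 ± 0.11, 1.02 ± 0.11, 0.87 ± 0.11 and 1.08 ± 0.14. Forelimb tissue was in the fetal samples alone. The forelimb factor Tbx5 had a fetal mean of 5.79 and later means of 4.75 to 4.83.

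**Figure D4:**
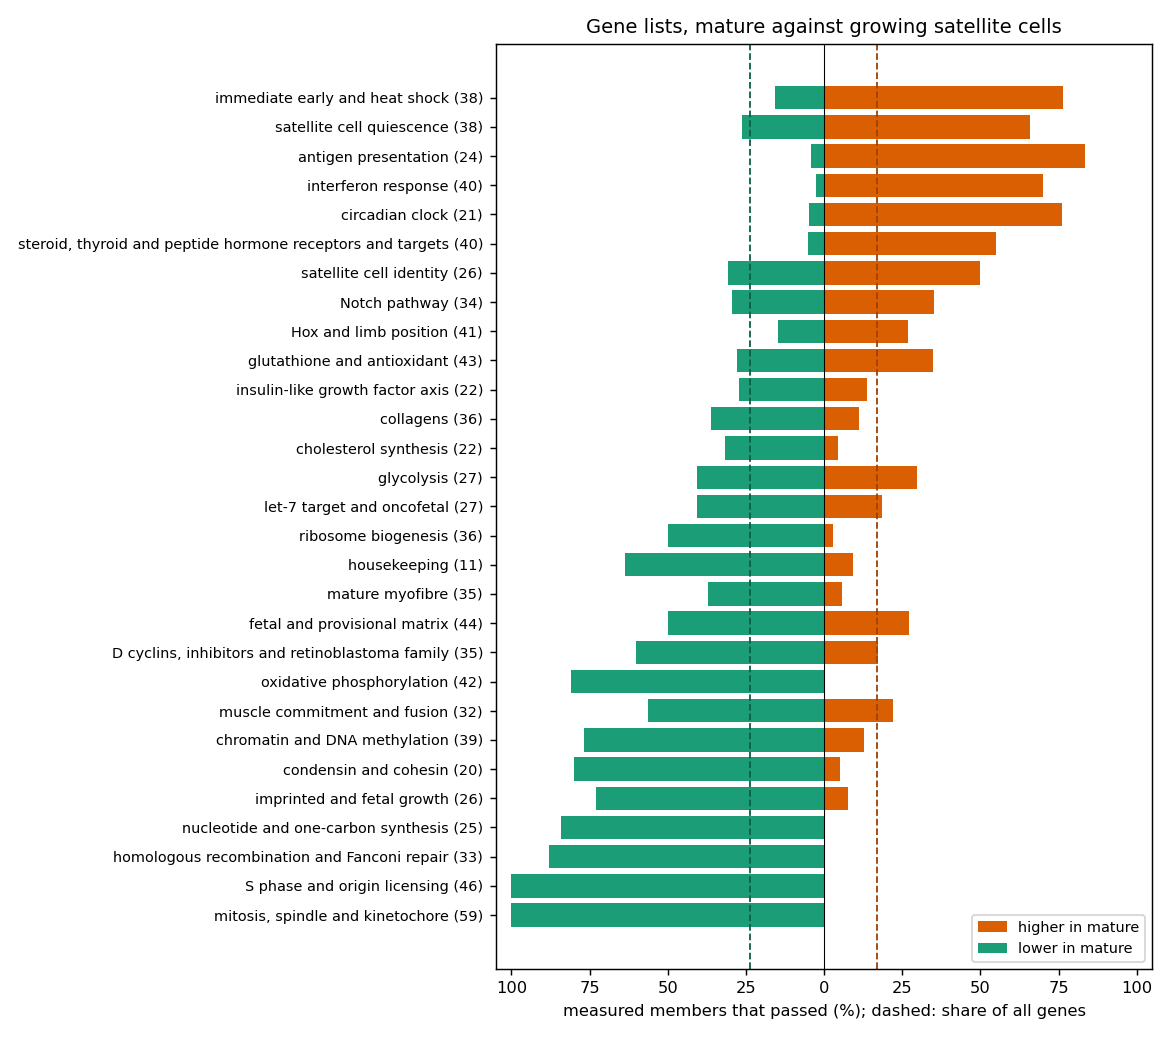
Share of measured members (%) of each gene list that were higher (right) or lower (left) in mature cells at an adjusted p under 0.05, with list sizes in brackets, ordered by median difference. Dashed lines mark the shares of all genes, 17% higher and 23.7% lower. Mitosis and S phase genes all fell, and immediate early, quiescence, antigen presentation, interferon and clock genes mostly rose.

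The 2 stages within a side were not alike, and the shape of the change differed between genes. Adolescent against fetal cells differed for 3739 genes (18.8%) and aged against adult cells for 697 (3.5%). Across the boundary 8465 genes (42.5%) separated adult from fetal cells and 7138 (35.8%) aged from fetal cells. From adolescent cells, adult cells differed for 3941 genes (19.8%) and aged cells for 3899 (19.6%). These comparisons share arrays. Single adult and aged arrays weighed on some of them: aged and adult cells differed for 7844 genes without adult replicate 1 and for 214 without aged replicate 2, and adult and adolescent cells for 10757 without adult replicate 1 and 1876 without adult replicate 2. Without adult replicate 1, 12968 genes separated adult from fetal cells. All 4 passed in the same direction for 489 higher genes (2.45%) and 1553 lower genes (7.79%).

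A step gene was defined as one with no overlap and at least 2-fold change for which the 95% intervals of both within-side differences stayed inside 1.5-fold. There were 42 (0.211%), 9 up (0.0451%) and 33 down (0.166%). Car12 was the largest rise of this kind. Ntn5, a netrin, was at 7.39 to 7.83 in growing and 8.86 to 9.20 in mature cells (1.43 ± 0.07), and Resf1 (1.20 ± 0.07), Olfm2 (1.15 ± 0.10) and Dio2 (1.13 ± 0.09) followed. Among the falls were Afap1l2 (-1.34 ± 0.10), Mcam (-1.33 ± 0.11), the nucleoporin Nup93 (-1.33 ± 0.11), the proteasome assembly chaperone Psmd10 (-1.30 ± 0.10), the cannabinoid receptor Cnr1 (-1.27 ± 0.11) and Sdhd (-1.18 ± 0.11). Nup93 was at 8.65 to 8.97 in growing and 7.13 to 7.97 in mature cells.

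Graded genes moved the same way at each stage, with both within-side differences passing as well. There were 67 (0.336%), 64 up (0.321%) and 3 down (0.015%). Akr1c14 rose by 1.02 within the growing and by 0.92 within the mature side. P2ry14 had stage means of 5.36, 6.53, 8.95 and 9.99, and Tshr of 6.08, 7.29, 9.68 and 10.38. E2f7 was among those that fell, with stage means of 9.35, 7.88, 6.56 and 6.09.

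Turning genes had no overlap but a within-side difference that passed against the main direction. There were 28 (0.14%), 5 up (0.0251%) and 23 down (0.115%). The turn lay between the growing stages for 18 (0.0903%) and between the mature stages for 10 (0.0502%). Igf2 had stage means of 12.04, 10.92, 10.00 and 10.57, so aged cells were higher than adult cells by 0.57 (adjusted p = 0.0141). Ldlrad3 (10.93, 8.72, 7.49, 8.19), Sema5a, an axon guidance gene (9.36, 7.35, 6.26, 6.80), and Chsy1, a chondroitin synthase (10.71, 9.06, 8.13, 8.82), turned at the same place. Mymk was highest in adolescent cells (9.08, 9.97, 8.26, 7.20), as was Neurl1b, a ligase of the Notch pathway (8.13, 9.37, 7.14, 7.02). The homeobox gene Dbx1 was lowest there (9.09, 6.90, 9.41, 9.96). These counts were sensitive to adult replicate 1: without it there were 110 step, 188 graded and 983 turning genes. Without adult replicate 2 there were 26 step genes, and without aged replicate 3 there were 24 graded and 17 turning genes.

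**Figure D5:**
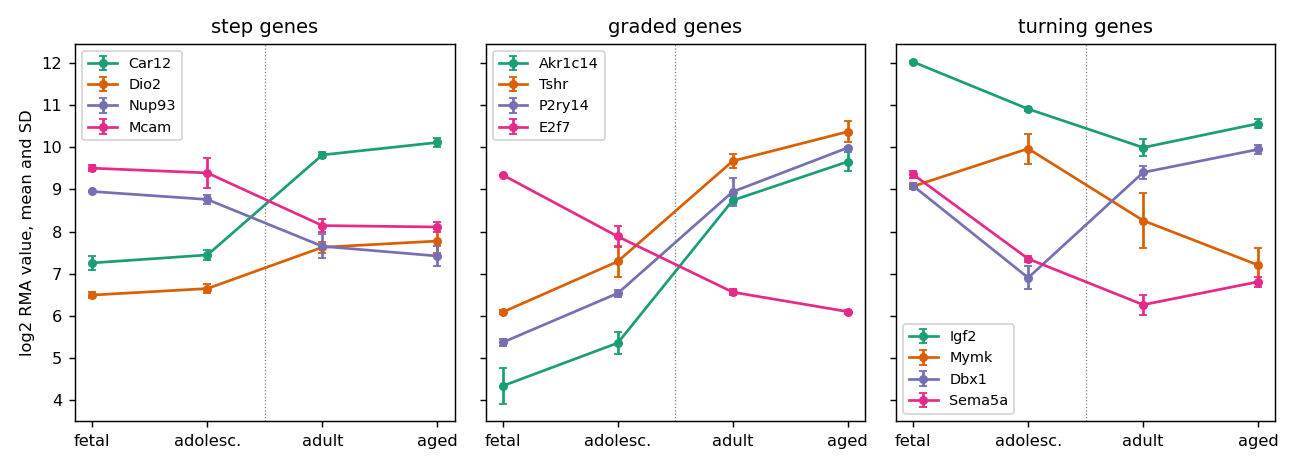
Stage means of the log2 RMA value with the SD of 3 arrays for 4 step genes, 4 graded genes and 4 turning genes, with a dotted line between growing and mature stages. Car12 changes at the line alone, Tshr rises at each stage, and Dbx1 is lowest in adolescent cells at 6.90.

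Markers of other cells that muscle contains were followed on the same arrays. Of 23 endothelial markers 13 rose and 0 fell (median 0.39), against 17% and 23.7% of all genes. The sides overlapped for all 23 markers, while 5.18% of all genes were higher without overlap. The median of these markers was 0.48 without the 3 arrays of raised receptor signal. Their mean was 6.54 to 7.29 on fetal, 7.95 to 8.45 on adolescent, 7.42 to 7.46 on adult and 8.11 to 8.60 on aged arrays, so they differed within both sides. Ramp2 rose by 1.03 ± 0.11, Flt1 by 1.08 ± 0.19, Adgrl4 by 1.20 ± 0.22 and Sox18 by 0.56 ± 0.11. Of 16 smooth muscle and pericyte markers 9 rose and 3 fell (median 0.58). Their mean was 7.18 to 7.34 on fetal, 7.94 to 8.28 on adolescent, 7.91 to 8.07 on adult and 8.25 to 8.42 on aged arrays, so the fetal arrays alone were low. Vtn (vitronectin) was at 5.65 to 8.81 in growing and 9.40 to 10.17 in mature cells (2.50 ± 0.07), and Notch3 and Cspg4 moved by 0.83 ± 0.07 and -0.93 ± 0.09. The macrophage markers had a mean of 5.94 to 6.41 on growing and 5.82 to 6.62 on mature arrays. Their median difference was -0.02 on all arrays and -0.03 without the 3 arrays of raised receptor signal.

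Of 15 mast cell markers 1 rose and 7 fell, with list means of 5.45 to 5.73 on fetal, 4.92 to 5.02 on adolescent, 4.75 to 5.08 on adult and 5.10 to 5.11 on aged arrays. Without adult replicate 1 the counts were 5 and 5. Of all genes 17% rose and 23.7% fell on all arrays, and 31.5% and 29.3% without adult replicate 1. Cpa3, the mast cell carboxypeptidase, had a fetal mean of 9.94 and means of 5.64, 4.66 and 5.43 thereafter (-2.74 ± 0.15). Of 16 lymphocyte markers 8 rose and 0 fell, 14 and 0 without adult replicate 1 and 5 and 0 without the 3 arrays of raised receptor signal. Their mean was 4.71 to 5.00 on growing and 4.91 to 5.40 on mature arrays. The largest of these, Jchain, was at 3.84 to 8.50 (median 4.40) in mature cells and at 3.82 to 3.95 in growing cells. Of 13 neutrophil markers 3 rose and 0 fell (5 and 0 without adult replicate 1, 2 and 2 without the 3 arrays), with Ltf at 4.85 to 5.10 and 5.18 to 5.45. Of 11 Schwann and glial markers 2 rose and 2 fell, against 17% and 23.7% of all genes. Erbb3 differed by -0.79 ± 0.07 and Mbp by 0.33 ± 0.07. Of 7 erythroid markers 0 rose and 1 fell, the transferrin receptor Tfrc (-1.35 ± 0.15), which dividing cells also use. The median difference of the 7 was 0.01 on all arrays and -0.11 without the 3 arrays. The embryonic globin Hbb-bh1 stayed at 3.54 to 4.06 on all 12 arrays. The part of these cells in the differences reported was not tested.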

How the data were processed

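RNA of sorted satellite cells was amplified and labelled with an Ambion whole-transcript kit and read on 12 Affymetrix arrays, 3 per stage, per the labels' protocols. The deposited values are log2 intensities that the authors summarised with RMA in Affymetrix Expression Console 1.2.1.20, per the submitters' processing notes. The genome build is not given in the sources used here. Precision is limited by there being 3 arrays a stage.

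Of 35556 probe sets, 21789 have 1 symbol in the platform annotation, 1621 several and 12146 none here. Probe sets with 1 symbol were kept, and for 999 genes with several the one with the highest mean over 12 arrays was used, which left 19938 genes. Stage means were fitted with limma 3.58.1 (R 4.3.3) on all arrays, with 8 residual degrees of freedom, no block and Benjamini-Hochberg adjustment at 0.05. The fit was tested on simulated data with independent noise and, for changed genes, a shift on all mature arrays. Those data held no differences between the stages of a side and no array effects, so they do not check for these. Mature minus growing weights stages equally.

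The comparison, the 38 gene lists and the tests were chosen with earlier results of these data known. Genes named by rule were the 15 with the widest gap in each direction, with a mean of at least 6 on the higher side, leaving out predicted genes, small RNAs and receptors of smell, up to 6 step genes in each direction, up to 6 turning genes, the 4 or fewer genes of lowest p in each gene list, and a fixed list of genes. Other genes named as examples, the miRNA genes and those of the printed promoters were chosen after their values were seen. Sequences are from RefSeq (GRCm38.p6). Alternatives covered scaling, a floor, array weights, other groupings of arrays and leaving out each array. They are compared in the closing section.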

Additional observations from a re-analysis of the deposited data

Results flagged for a closer look

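The 6 growing and the 6 mature arrays were searched for each gene named by rule and for the mean of the receptor probe sets. A single array was flagged where its distance from its nearest neighbour took up more than 0.625 of the range of its side. Of 386 such groups 24 had one, where chance gives about 1 in 20, and 21 of the 24 were adult replicate 1.

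On that array several division and repair genes were the highest of the mature side, with Aspm at 6.88, Bub1b at 6.83, Cip2a at 6.60, Dbf4 at 6.58, Lmnb1 at 8.25, Ncapd2 at 7.98, Ncapg at 6.46, Ncaph at 7.45, Racgap1 at 7.35 and Rad54l at 6.18. Genes of other groups were highest there too, with Cdkn1c at 10.09, Dlk1 at 8.75, Slc38a4 at 7.30, Myog at 9.50, Ryr1 at 7.59, Actn3 at 10.19, Cnr1 at 5.86, Pgk1 at 10.18 and Sdhd at 8.73. Btg2 at 11.35 and Slco2a1 at 8.57 were the lowest of the mature side on the same array. In each case but that of Actn3 the value lay toward the growing side.

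The other 3 lone arrays were in the growing side. Adolescent replicate 1 was low for Gar1 at 8.58 and for Mcam at 8.98, and fetal replicate 1 was low for Irs2 at 7.67.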

How the results depend on the processing

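Counts of genes depended most on the spread assumed and on adult replicate 1. With array weights, whose fit stopped before reaching its tolerance, 15143 genes passed, 8318 of them higher, with 15437 between adult and fetal, 15088 between adult and adolescent, 12241 between aged and fetal, 13253 between aged and adolescent, 8034 between adolescent and fetal and 15776 between aged and adult cells, and 167 step, 650 graded and 1373 turning genes. With sides as groups and no stage 2098 were higher. With the 4 stage means as samples (2 residual degrees of freedom) limma called 0 genes, 0 higher and 0 lower, while 3903 had an unadjusted p under 0.05. Tested against 1.5-fold, 1333 passed (486 higher, 847 lower), with 1853, 260, 2152, 526, 789 and 13 in these 6 comparisons in the same order, and 1 graded and 1 turning gene.

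Quantile normalization gave 1677 higher genes without overlap, and a floor of 6 gave 50 turning genes. Without adult replicates 2 and 3 and aged replicate 1, an alternative chosen after seeing the data, 2135 higher genes had no overlap, 1586 passed in adult against adolescent, 6351 in aged against adolescent, 5904 in adolescent against fetal and 1608 in aged against adult cells, with 18 step, 325 graded and 100 turning genes. With replicates 2 and 3 of each stage averaged, also chosen after seeing the data, 4203 passed (1492 higher, 2711 lower), with 3532, 323, 4140, 1122, 1472 and 2 in the stage comparisons in the same order, and 7 step, 0 graded and 4 turning genes.

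Leaving out each array in turn, between 6823 and 12117 genes passed, 2660 to 6285 higher and 4133 to 5832 lower, and 1069 to 1478 higher and 2374 to 3041 lower genes had no overlap. The stage comparisons ranged over 5923 to 12968 (adult against fetal), 1876 to 10757 (adult against adolescent), 5893 to 8537 (aged against fetal), 2693 to 5466 (aged against adolescent), 2690 to 5049 (adolescent against fetal) and 214 to 7844 (aged against adult). Step genes ranged over 26 to 110, graded over 24 to 188 and turning over 17 to 983. Why the counts moved was not tested.

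Over 12 same-numbered pairs of arrays across the sides the correlation of deviations ran from -0.282 to 0.362, and 4 exceeded 0.1. The adolescent and adult pairs were 3 of these 4 (0.362, 0.317 and 0.239). Pairs with different numbers were not compared, so these values cannot tell whether the numbers pair any stages. With the replicate number as a block 7576 genes passed, and 3458 between adult and adolescent cells. Of 186 named genes that passed, 0 changed sign over 26 alternatives. Of these, 186 no longer passed with the 4 stage means, 38 against 1.5-fold, 19 with sides as groups, 13 with replicates averaged and 3 or fewer under each other alternative. Among those that had not passed, the gene Hbb-bh1 turned to -0.0185 after quantile normalization and to -0.0397 without the 3 arrays, and the gene Epb42 to -0.0105 without the 3 arrays.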

Other observations

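Several gene families of general cell machinery also differed between the sides. A few of their members, such as proteasome genes of antigen presentation, are in the gene lists too. The families were chosen by name after the data had been seen and are given as counts. Of all genes 17% rose and 23.7% fell, and 5.18% were higher and 11.8% lower without overlap. Of 50 proteasome genes 3 rose and 37 fell in mature cells (median -0.55), 26 of the falls without overlap. Of 77 mitochondrial ribosomal protein genes 0 rose and 52 fell (median -0.46). All 10 small nuclear ribonucleoprotein genes of the spliceosome fell (median -0.73), as did 15 of 17 heterogeneous nuclear ribonucleoprotein genes (median -0.39), 17 of 20 nucleoporin genes (median -0.75) and 8 of 10 genes of the chaperonin that folds actin and tubulin (median -0.47). Cytosolic ribosomal protein genes went the other way, with 21 of 60 higher and 4 lower (median 0.15), 14 of the rises without overlap.

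Without adult replicates 2 and 3 and aged replicate 1 these medians were -0.38 for the proteasome (3 rose and 28 fell), -0.28 for mitochondrial ribosomal proteins (4 rose and 41 fell), -0.59 for small nuclear ribonucleoproteins, -0.56 for nucleoporins, -0.28 for chaperonins (7 fell), -0.26 for heterogeneous nuclear ribonucleoproteins (11 fell) and 0.21 for cytosolic ribosomal proteins. Of 1194 receptor genes of smell and pheromones 166 rose and 0 fell on all arrays, and 12 rose and 37 fell without those 3.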
